A study of Saccharomyces cerevisiae with 4 samples.

Results

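The genes described are 35 early meiotic and recombination genes of budding yeast, of 5449 Saccharomyces cerevisiae genes with a probeset on the array. They are the inducers of meiosis, the machinery that breaks, pairs and recombines meiotic chromosomes, and a few genes of the meiotic divisions, chosen by name from a list of 36. HED1, the remaining gene on the list, matched no probeset here and was not analysed. Each of the 35 had a single probeset, and in none did its name carry the suffix for probes shared with other sequences. Of the 4 arrays, 2 came from cultures of strain BY4741 given vehicle and 2 from cultures given 50 μM CG-1521, a histone deacetylase inhibitor, with 1 h of exposure. BY4741 is a haploid a strain derived for laboratory work and deleted for several auxotrophic markers, and all cultures grew exponentially in YPD, a rich glucose medium, at the time of treatment. The replicates were described as independent biological experiments.

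Meiosis in yeast normally starts in diploid cells that are starved and lack glucose. The activator Ime1 then acts with the DNA-binding protein Ume6 to switch on early genes, and Ndt80 later switches on middle genes. In growing cells Ume6 instead recruits the Sin3 and Rpd3 deacetylase complex to early meiotic promoters, which keeps them repressed. Haploid cells in rich medium are therefore not expected to enter meiosis. The comparison asks how these genes, many but not all repressed in this way, respond to CG-1521. Deacetylase activity was not measured by the arrays.

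With CG-1521, 3 of the 35 genes rose, SPO13, DMC1 and NDT80, by 3.38-fold, 2.52-fold and 2.17-fold, and 2 fell, MEI4 by 1.03 on the log2 scale and IME1 by 0.56. The other 30 did not pass, where a call was a limma adjusted p under 0.05 over all genes. Over all genes tested 12.9% were called higher and 16.8% lower, against 8.57% and 5.71% of the meiotic genes, so both shares lay below those over all genes. The median log2 fold change was 0.22 over the 35 genes and -0.04 over all genes. Precision was lower for these genes, with a median SE of 0.23 against 0.12 over all genes. The arrays measured RNA of whole cultures, so more cells with a transcript and more transcript per cell cannot be told apart.

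Facts of the arrays bear on these values. Background on each array, the 95th percentile of 1746 probesets for Schizosaccharomyces pombe, was 2.42 to 2.45 in log2 units. All 35 genes exceeded it on all 4 arrays, as did 5438 of all 5449 genes, so this does not set the 35 apart. The lowest value among them was 3.82, that of RIM4 on a control array. Of the markers deleted in the strain, URA3 and MET17 lay below background on every array, and LEU2 lay between 2.08 and 3.09 and was called higher (0.68, limma adjusted p = 0.0488). HIS3 gave values from 10.21 to 10.91 and was called lower (-0.60, limma adjusted p = 0.0217), and how much of it the strain's allele leaves for these probes was not examined. The a-cell genes MFA1, MFA2, STE2, STE6, BAR1 and AGA2 all gave values of 10.81 or more, and STE2, STE6 and AGA2 fell by 0.79, 0.58 and 0.80; the part of this in the meiotic genes was not tested. Of the alpha-cell genes, MF(ALPHA)2 was at 9.20 to 9.59 and SAG1 at 7.62 to 7.86, while MF(ALPHA)1 was at 2.73 to 3.79 and STE3 at 4.63 to 5.17. Alpha-cell probesets were thus not all near background. MF(ALPHA)1 was called lower (-0.75, limma adjusted p = 0.0377), so that, as for LEU2, a call was made at values near background.

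**Figure D1:**
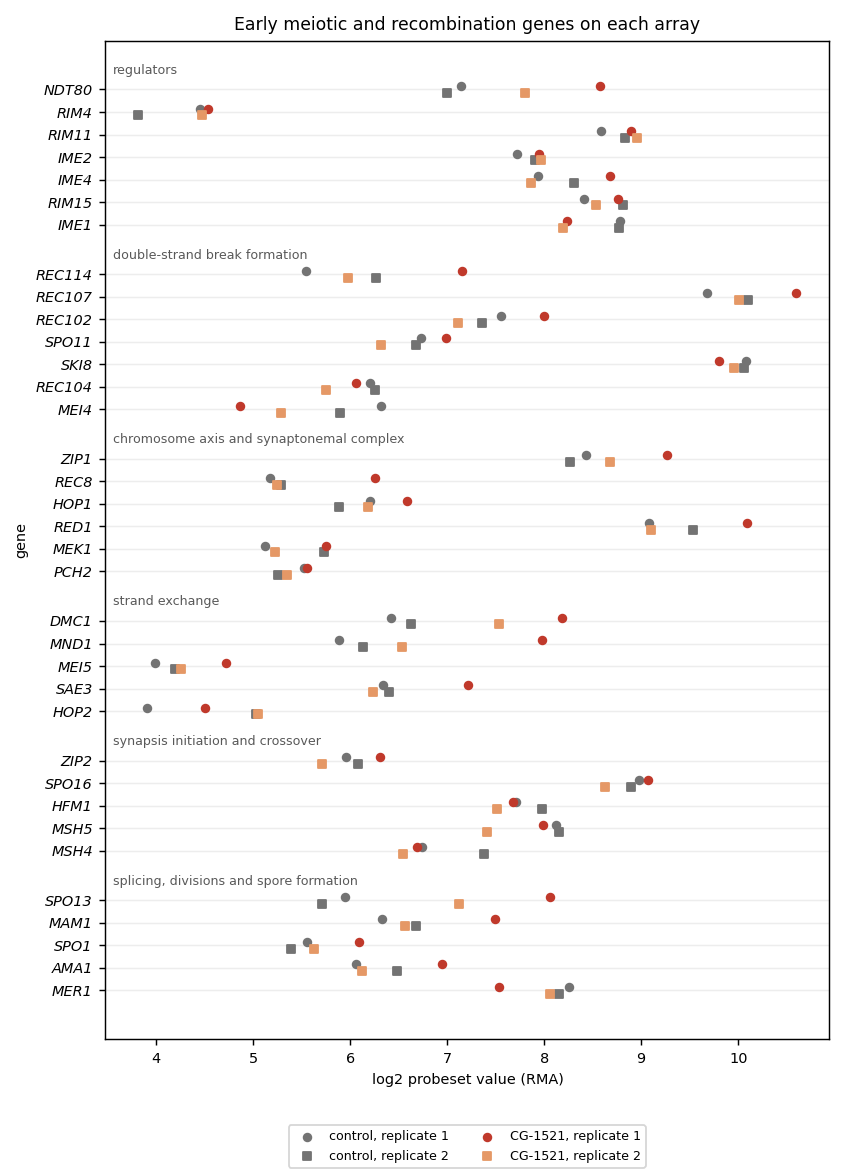
The log2 probeset value of each of the 35 genes on each of the 4 arrays, grouped by role; circles are replicate 1 and squares replicate 2, grey for control and coloured for CG-1521. The red circles of SPO13, DMC1, MND1 and NDT80 stand far to the right of both grey symbols, and the CG-1521 symbols of IME1 and MEI4 stand to the left of them.

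Among the 7 regulators, NDT80 rose and IME1 fell. NDT80, the transcription factor of middle sporulation genes, was at 7.15 and 6.998 on the control arrays and at 8.58 and 7.80 on the CG-1521 arrays. Both treated values lay above both controls, and the log2 difference was 1.12 (SE 0.28, limma adjusted p = 0.0422). IME1, the activator that opens the meiotic programme, was at 8.78 and 8.77 in control against 8.23 and 8.20 with CG-1521. Its replicates lay within 0.04 of each other in both groups, and the difference was -0.56 (SE 0.10, limma adjusted p = 0.0198). Of the 35 genes IME1 had the lowest adjusted p, and it moved opposite to the early genes DMC1 and SPO13.

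The other regulators did not pass. IME2, a meiotic kinase, was at 7.71 and 7.90 in control against 7.95 and 7.97 with CG-1521, a difference of 0.15 (SE 0.11, 95% interval -0.15 to 0.45). RIM11, the kinase that phosphorylates Ime1 and Ume6, differed by 0.22 (SE 0.13), and the nutrient-responsive kinase RIM15 by 0.03 (SE 0.18). For RIM4, an RNA-binding translational repressor, the values were 4.45 and 3.82 in control against 4.54 and 4.48 with CG-1521, a difference of 0.37 (SE 0.23). IME4, an mRNA methyltransferase, was at 7.93 and 8.31 in control against 8.68 and 7.86 with CG-1521. Its groups overlapped, with the treated arrays on either side of the controls. In the R64 annotation IME4 and ZIP2 are each overlapped by an antisense RNA on the opposite strand, RME2 and RME3. Whether the probesets kept the strands apart is not given in the sources used here, so for these genes sense and antisense RNA cannot be told apart.

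Of the 7 genes for double-strand break formation, MEI4 fell and the other 6 did not pass. MEI4, which works with Rec114 and Mer2 to activate the break machinery, was at 6.32 and 5.89 in control against 4.86 and 5.29 with CG-1521. Both treated arrays were below both controls, with a difference of -1.03 (SE 0.22, limma adjusted p = 0.0308). Neither of its partners passed. REC114 was at 5.54 and 6.26 in control against 7.16 and 5.97 with CG-1521, so that replicate 1 alone exceeded the controls. REC107, which encodes Mer2, was at 9.68 and 10.10 in control against 10.60 and 10.01 with CG-1521, again with replicate 1 alone above both controls.

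SPO11, the topoisomerase-like enzyme that cuts the DNA, was at 6.73 and 6.68 in control against 6.98 and 6.32 with CG-1521. One treated array lay above the controls and the other below, and the difference was -0.05 (SE 0.24). Its core partner REC102 showed the same spread, at 8.003 and 7.11 with CG-1521 around 7.55 and 7.36 in control. REC104, another core partner, was lower on both treated arrays, at 6.06 and 5.75 against 6.20 and 6.25, and did not pass (-0.32, SE 0.14, limma adjusted p = 0.147). SKI8, which also acts in mRNA decay in growing cells, was at 10.08 and 10.06 in control against 9.80 and 9.96 with CG-1521 (-0.19, SE 0.11). Across this group the log2 differences ran from -1.03 to 0.66, with 3 above and 4 below 0.

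The 6 genes of the chromosome axis and the synaptonemal complex all had differences above 0, and none passed in limma. Only ZIP1 of the 6 had an unadjusted p under 0.05 in limma, beside 2437 of all 5449 genes. ZIP1, the transverse filament protein that zips homologues together, was at 8.43 and 8.27 in control against 9.27 and 8.68 with CG-1521. Its groups did not overlap, and the difference was 0.62 (SE 0.22, limma adjusted p = 0.0953). REC8, the meiotic cohesin subunit, was at 5.18 and 5.29 in control against 6.26 and 5.25 with CG-1521, so 1 treated array was about 1 log2 unit above and the other among the controls. RED1, an axis core protein, was at 9.07 and 9.53 in control against 10.10 and 9.11 with CG-1521, with the same split. HOP1, its axis partner, differed by 0.34 (SE 0.19), the axis kinase MEK1 by 0.06 (SE 0.28) and the checkpoint ATPase PCH2 by 0.06 (SE 0.15).

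Strand exchange genes held DMC1, which rose, and the largest difference that did not pass. DMC1, the meiotic recombinase, was at 6.42 and 6.63 in control against 8.18 and 7.53 with CG-1521. Both treated arrays were well above the controls, with a difference of 1.33 (SE 0.24, limma adjusted p = 0.0222). MND1, which with Hop2 helps Dmc1 pair homologues, was at 5.88 and 6.13 in control against 7.97 and 6.53 with CG-1521. Its groups did not overlap either, but the treated arrays were 1.44 apart, and the difference of 1.25 (SE 0.49) did not pass (limma adjusted p = 0.117). HOP2, its partner, was at 3.91 and 5.03 in control against 4.51 and 5.05 with CG-1521; its controls were 1.12 apart, and the difference was 0.31 (SE 0.42). The Dmc1 accessory factors MEI5 and SAE3 differed by 0.40 (SE 0.19) and 0.36 (SE 0.33). SAE3 stood at 7.22 on 1 treated array and at 6.24 on the other, against 6.34 and 6.40 in control.

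The 5 genes of synapsis initiation and crossover formation all had differences at or below 0, and none passed in limma or had an unadjusted p under 0.05. MSH5, which with Msh4 stabilises crossover intermediates, was at 8.12 and 8.15 in control against 7.99 and 7.41 with CG-1521 (-0.44, SE 0.21, limma adjusted p = 0.179). MSH4 was at 6.74 and 7.38 in control against 6.69 and 6.54 with CG-1521 (-0.45, SE 0.23). The treated values of both lay below both controls. HFM1, the crossover helicase also called Mer3, differed by -0.25 (SE 0.14), and SPO16 and ZIP2, which form a complex, by -0.09 (SE 0.17) and -0.01 (SE 0.22). The sign of ZIP2 turned to 0.01 when arrays were centred on their medians.

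Of the 5 genes of splicing, divisions and spore formation, SPO13 rose. SPO13, which keeps sister chromatids together in the first meiotic division, was at 5.95 and 5.71 in control against 8.06 and 7.12 with CG-1521. Both treated arrays were more than 1 log2 unit above both controls, and the difference of 1.76 (SE 0.33, limma adjusted p = 0.0237) was the largest among the 35 genes. MAM1, the monopolin subunit of the same division, was at 6.33 and 6.68 in control against 7.49 and 6.56 with CG-1521, so that only replicate 1 exceeded the controls. AMA1, a meiotic activator of the anaphase-promoting complex, was at 6.07 and 6.48 in control against 6.94 and 6.12 with CG-1521, again with replicate 1 alone above them. SPO1, a meiotic phospholipase-like protein, differed by 0.39 (SE 0.19) with both treated arrays above both controls. MER1, a splicing factor for meiotic transcripts, was lower on both treated arrays, at 7.53 and 8.06 against 8.25 and 8.15, and did not pass (-0.41, SE 0.20, limma adjusted p = 0.182).

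**Figure D2:**
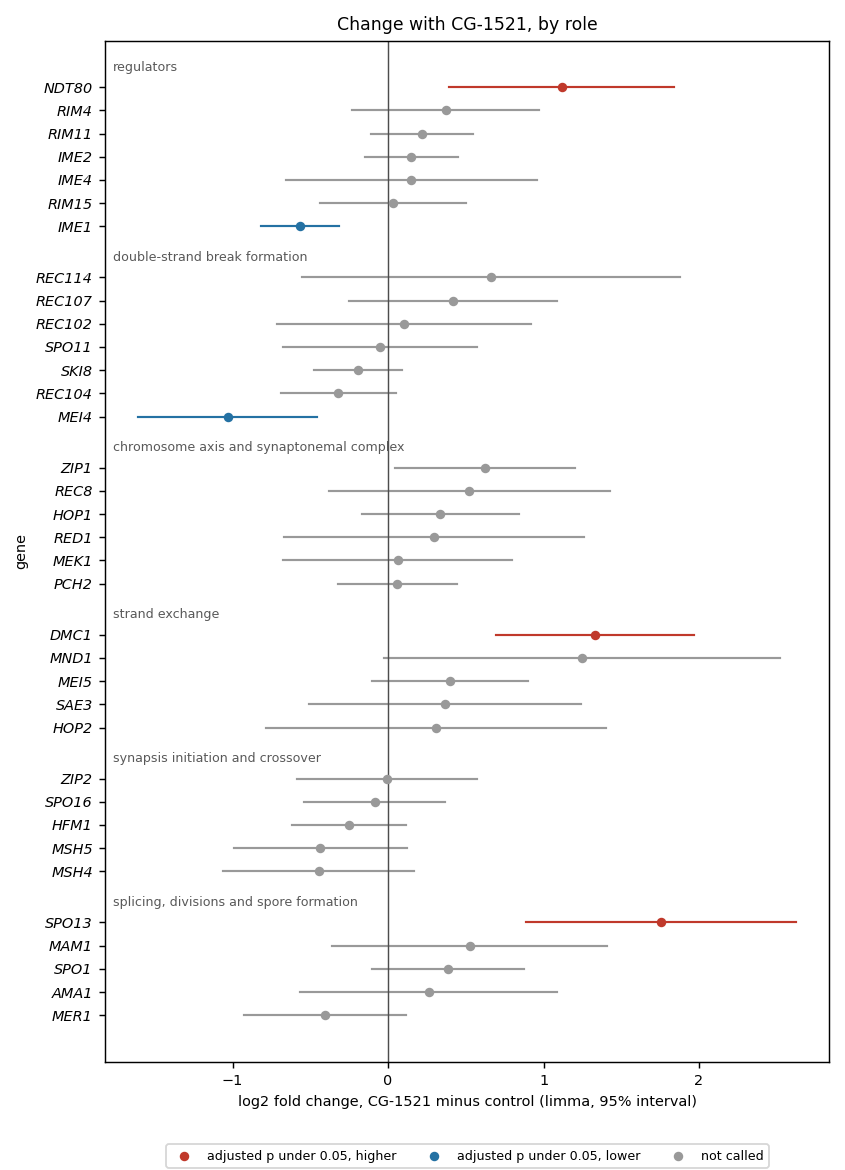
The log2 fold change of each gene (CG-1521 minus control, from limma) with its 95% interval, grouped by role; red and blue mark genes called higher and lower, grey those not called. The intervals of SPO13, DMC1 and NDT80 lie above 0 and those of IME1 and MEI4 below; that of ZIP1 also lies above 0 before adjustment over all genes.

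Both treated values lay above both controls for 10 of the 35 genes and below both for 8. Over all genes tested these shares were 31.4% and 40.9%, both above the 28.6% and 22.9% of the meiotic genes. For 17 genes the groups overlapped. The 10 genes that were higher on both treated arrays were NDT80, RIM4, RIM11, IME2, ZIP1, DMC1, MND1, MEI5, SPO13 and SPO1. Those lower on both were IME1, SKI8, REC104, MEI4, HFM1, MSH5, MSH4 and MER1.

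The treated arrays differed from each other more than the controls did. The replicates of a group have no order, and their numbers only name the cultures. Replicate 1 exceeded replicate 2 for 29 of the 35 genes, or 82.9%. The median gap over the 35 was 0.53 on the log2 scale, and 18 of them, or 51.4%, had a gap over 0.5. Among all 2942 genes with control means in the same range, 4.09 to 10.07, 57.9% were higher on replicate 1. Their median gap was 0.06, and 13.6% had a gap over 0.5. Over all genes 50.9% were higher on replicate 1. Among related lists, 10 of 24 middle sporulation genes (41.7%) had a gap over 0.5, with a median gap of 0.27. So did 3 of 12 other meiosis-specific genes, with a median of 0.20. Metabolic genes with a Ume6 site had 2 of 11 (18.2%, median 0.10), and genes controlling entry into meiosis 5 of 28 (17.9%, median 0.12). Over all genes the share was 8.64%. The 13.6% holds for the range of the 35 genes, and some genes of these lists, such as OPI3 and HST1, lie above that range. Of recombination genes shared with mitotic cells, 0 of 13 had such a gap, with a median of 0.13. Whether these shares differ between lists was not tested. The widest gaps were those of MND1 (1.44), REC114 (1.18), REC8 (1.01) and RED1 (0.99). Gaps below -0.5 were found for 2 genes, HOP2 (-0.54) and MER1 (-0.53). Between the control arrays the median absolute gap was 0.24 for the meiotic genes, against 0.54 between the treated arrays.

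**Figure D3:**
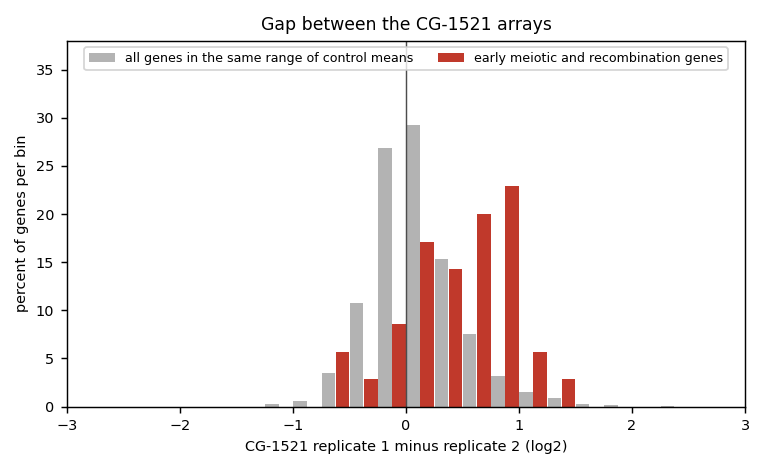
The distribution of the gap between the CG-1521 arrays (replicate 1 minus replicate 2, log2, in bins of 0.25), as percent of the 35 meiotic genes and of the 2942 genes with control means in the same range. The red bars are centred to the right of 0, with a median of 0.53, and the grey bars near 0.06.

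Taken separately, replicate 1 lay above both controls for 25 of the 35 genes and below both for 8, where 42.5% and 47.9% of all genes did so. Replicate 2 lay above both for 11 and below both for 14, against 37.5% and 49.6% of all genes. The median difference from the control mean was 0.40 on replicate 1 and -0.08 on replicate 2, and over all genes it was -0.03 and -0.06. Of the 5 called genes, SPO13 was 2.23 above the control mean on replicate 1 and 1.29 on replicate 2, DMC1 1.66 and 1.01, and NDT80 1.505 and 0.73. IME1 showed no such gap, at -0.55 and -0.58. MEI4 was at -1.24 and -0.82.

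**Figure D4:**
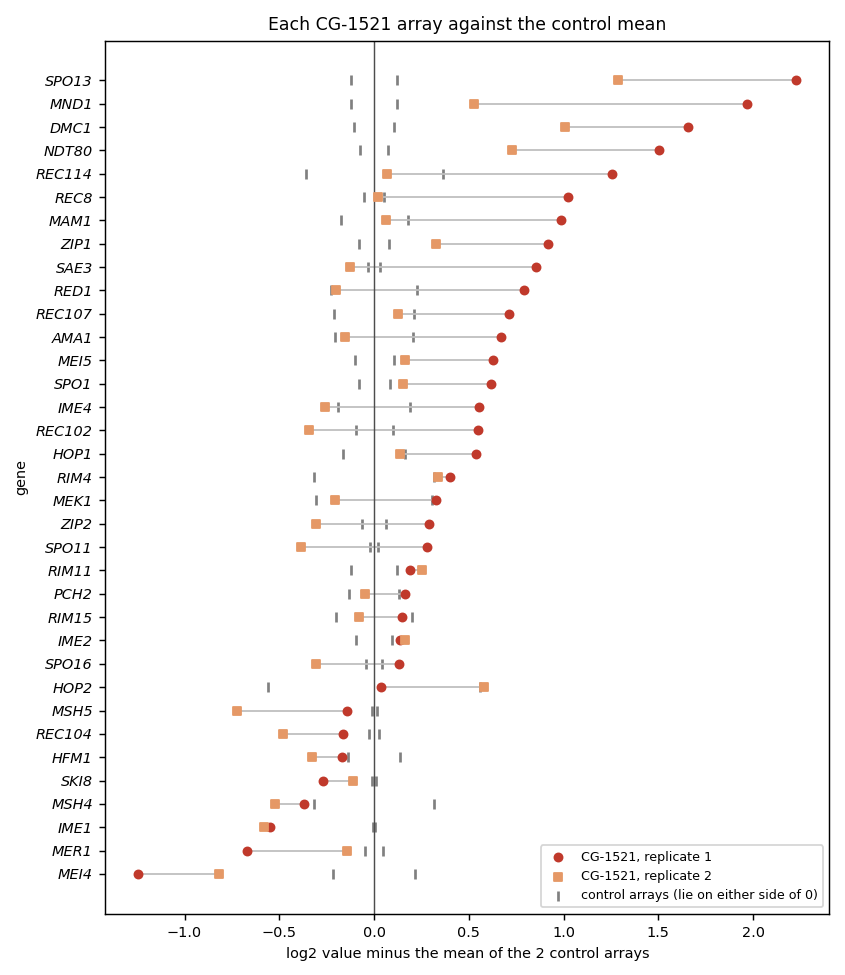
The log2 value on each CG-1521 array minus the mean of the 2 control arrays, for each gene, ordered by replicate 1; grey ticks show the control arrays themselves. Most red circles lie to the right of their orange squares, as for MND1 at 1.97 and 0.53, while the symbols of IME1 coincide near -0.55.

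With CG-1521 replicate 2 left out, limma called 12 of the 35 genes higher and 3 lower, where 18.4% and 20.8% of all genes were called. Beside SPO13, DMC1 and NDT80, the higher ones were MND1 (1.97), REC114 (1.25), REC8 (1.03), MAM1 (0.99), ZIP1 (0.92), SAE3 (0.85), MEI5 (0.63), SPO1 (0.62) and REC102 (0.55), and MER1 joined the lower ones (-0.67). With replicate 1 left out, 3 were called higher and 3 lower, where 10.8% and 14.1% of all genes were. The higher genes were again SPO13, DMC1 and NDT80, and the lower ones were IME1, MSH5 (-0.73) and REC104 (-0.48), while MEI4 missed the threshold (limma adjusted p = 0.0633). In both fits the single treated array was assumed to vary like the controls. Leaving out control replicate 1 or control replicate 2 ended all 5 calls, with adjusted p from 0.0908 and from 0.0744, and the shares of all genes called were 1.06% higher and 0.33% lower in the first of these fits, and 0.918% and 0.294% in the second. At an unadjusted p under 0.05, limma with all 4 arrays gave 6 of the 35 genes, beside 2437 of all 5449 genes.

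Calls also changed with the fit. With the replicate number as a block, SPO13, DMC1 and NDT80 were called higher and IME1 and MEI4 were no longer called, where 6.77% of all genes were called higher and 8.26% lower. With the numbers crossed, 4 of the 35 were called higher and 2 lower, where 15.5% and 17.9% of all genes were. When all probesets of the table were fitted together, DMC1 and IME1 alone of the 35 were called, with 6.13% and 8.15% of all genes. The 3 and 2 calls were also made with an intensity trend (16.0% and 20.3% of all genes), a minimum mean of 5 (13.5% and 17.9%), median centring (14.4% and 16.3%) and the mean of probesets (13.0% and 16.8%).

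Control measures of the treated arrays were compared in the same way. Probesets for S. cerevisiae ribosomal RNA had a median of 9.66 on CG-1521 replicate 1 and 10.84 on replicate 2, with 10.84 and 10.97 on the control arrays. Poly-A spikes, RNAs added to the sample, had medians of 9.54 and 8.89 on the treated arrays and 8.71 and 9.22 on the controls. The 3′ probeset of actin exceeded its 5′ probeset by 1.73 and 1.72 on the treated arrays and 1.59 and 1.47 on the controls, so it differed little between the treated arrays. The part of these measures in the gap of the meiotic genes was not tested.

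Of 28 repressors and activators of entry into meiosis, 2 were called higher and 1 lower, or 7.14% and 3.57%, beside 12.9% and 16.8% of all genes. Their median difference was 0.12. XBP1, a stress-induced repressor, was at 5.97 and 6.26 in control against 9.11 and 8.35 with CG-1521, a rise of 2.62 (SE 0.28, limma adjusted p = 0.00937). SOK2, a repressor linked to protein kinase A signalling, rose by 0.45 (SE 0.12), and the homeobox repressor YHP1 fell by 0.67 (SE 0.17). The components that hold early genes off in growing cells did not pass: UME6 differed by -0.11 (SE 0.16), SIN3 by 0.19 (SE 0.10) and RPD3 by 0.01 (SE 0.10). RME1, which represses IME1 in haploid cells, was at 9.20 and 9.16 in control against 9.18 and 9.43 with CG-1521 (0.12, SE 0.13).

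Among 12 other genes that act in meiosis, not all of them only there, 1 was called lower and none higher by limma. Of the 12, 2 had an unadjusted p under 0.05 in limma, beside 2437 of all 5449 genes. The median difference of the 12 was -0.14. The share called lower was 8.33%, beside 16.8% of all genes. NDJ1, a meiotic telomere protein, fell by 0.62 (SE 0.14, limma adjusted p = 0.0339). GMC2 and ECM11, named after their values were seen, which help assemble the central region of the synaptonemal complex, showed a wide gap between the treated arrays. GMC2 was at 6.66 and 4.33 with CG-1521 and at 4.68 and 5.26 in control, and ECM11 at 8.17 and 7.07 with 6.42 and 7.40 in control. Of 15 recombination genes that also serve mitotic cells 13 were measured, of which 1 rose, RAD57 (0.62, SE 0.16), and 2 fell, SAE2 (-0.60, SE 0.15) and MRE11 (-0.38, SE 0.10), with a median of 0.09. These are 7.69% and 15.4% of the 13, beside 12.9% and 16.8% of all genes.

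Of 11 metabolic genes listed as having a Ume6 site in their promoters, 4 were called higher, or 36.4% beside 12.9% of all genes. The other 7 were not called. The sites were not checked here, and the list was chosen with earlier results of these data known. The part of Ume6 in these changes was not tested. The median was 0.41, and all 11 differences were above 0. The called genes were INO1, inositol phosphate synthase (2.01, SE 0.27), OPI3 (1.31, SE 0.11) and CHO1 (0.58, SE 0.10) of phospholipid synthesis, and the photolyase PHR1 (0.55, SE 0.12). OPI3 was at 10.80 and 10.81 in control against 12.03 and 12.20 with CG-1521, with replicate 2 the higher treated array. Of 24 middle sporulation genes, which Ndt80 serves, 2 rose and 5 fell, with a median of 0.12. These are 8.33% and 20.8%, near the 12.9% and 16.8% of all genes. MPC54, a spindle pole body protein, rose by 0.70 (SE 0.12) and OSW2 by 1.77, while SPO74, SPS4, SPO77, SPS18 and SPO75 fell by 1.84, 1.32, 0.83, 0.55 and 0.44. Both treated values lay above both controls for 10 of these 24 genes and below both for 7. These shares were 41.7% and 29.2%, beside 31.4% and 40.9% of all genes. The lists were described by these counts, without a test of the list. Of the called genes in the 5 lists, XBP1, INO1, OPI3, OSW2, MPC54, SPO74, SPS4 and SPO77 were also called with the replicate block and with all probesets fitted together. SOK2, YHP1, NDJ1, RAD57, SAE2, MRE11, CHO1, PHR1, SPS18 and SPO75 were called in neither of these fits.

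**Figure D5:**
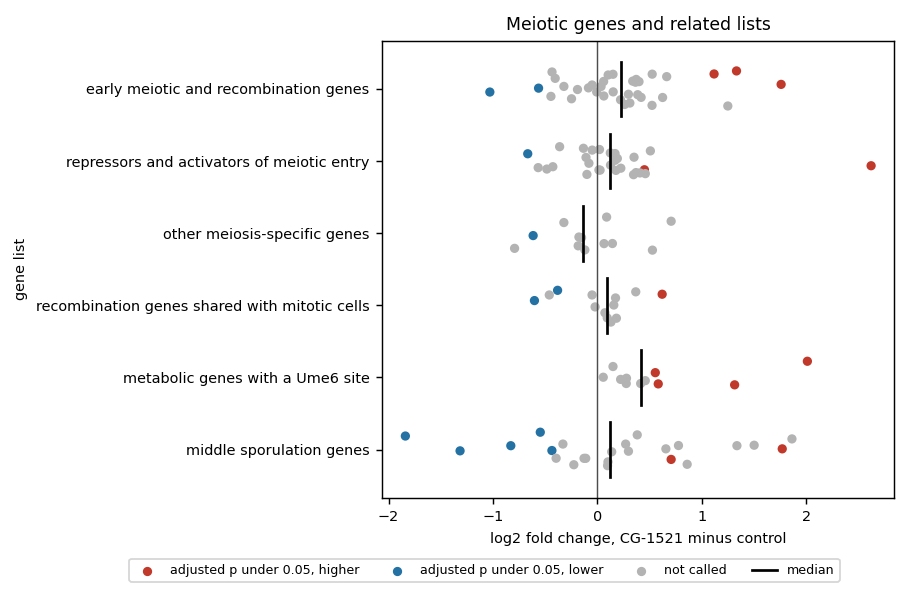
The log2 fold change (CG-1521 minus control) of each gene in 6 gene lists, with a black bar at each list's median; red and blue mark genes called higher and lower. The medians lie at 0.22 for the early meiotic genes, 0.12, -0.14, 0.09, 0.41 and 0.12 from top to bottom.

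The genes next to the meiotic genes on the chromosome were compared as a description of their surroundings. Of 68 measured neighbours, themselves not among the 35, 2 rose and 16 fell, or 2.94% and 23.5%, beside 12.9% and 16.8% of all genes, with a median of -0.10. Those that rose were GTS1 beside MND1 (0.58) and LAM4 beside SAE3 (0.52), both named after their values were seen; with the replicate block neither was called. SPO13 lay between ARD1, which fell by 0.42 (SE 0.11, limma adjusted p = 0.0484), and MIP6 (-0.31), which did not pass. The call of ARD1 was lost under median centring, the replicate block and the fit of all probesets. Beside IME1, FIP1 fell by 0.42 (SE 0.11, limma adjusted p = 0.045), and this call was lost under median centring, the replicate block and the fit of all probesets. RPL43B on the other side of IME1 was also below both controls on both treated arrays and did not pass (-0.30, SE 0.11, limma adjusted p = 0.0951). ISC10 beside DMC1 was at 0.11. ANS1 beside NDT80 was at 4.23 and 5.22 in control against 6.30 and 5.03 with CG-1521 (0.94, SE 0.53), with replicate 1 alone above both controls.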

How the data were processed

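The authors deposited log2 probeset values for 4 Affymetrix arrays, made with Affymetrix Expression Console and RMA per the submitters' processing notes; RMA quantile-normalizes arrays together, so a shift of all transcripts would not show. Their versions are not given in the sources used here. The table held 10928 probesets, of which 5498 matched R64 genes through their gene identifiers, and the probeset with the highest 4-array mean was kept for each of 5449 genes. The main model was limma 3.58.1 under R 4.3.3 (lmFit and eBayes without trend or block), two-sided, with Benjamini-Hochberg adjustment over all genes and a threshold of 0.05. There were 2 residual and 2.69 prior degrees of freedom. The procedure was tested on simulated data in which control and treated arrays varied alike. In the data the median absolute gap over all genes was 0.11 between control arrays and 0.17 between CG-1521 arrays, so that test does not cover this difference. The number of arrays limits the precision. The 35 genes, their 6 roles, the 5 related lists and the tests were chosen with earlier results of these data known. Every measured gene of the list was named, with the called genes of related lists. UME6, SIN3, RPD3 and RME1 were added for their role. UME1, PHO23 and the neighbouring genes were added after their values were seen. A promoter motif search planned for these genes was not run, since no sequences were used here. The titles gave the replicate numbers, and the deviations of same-numbered arrays correlated at -0.26 across genes, so the numbers were not used to pair samples.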

Additional observations from a re-analysis of the deposited data

How the results depend on the processing

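Without 1 control array, 50 to 58 genes were called higher and 16 to 18 lower, against 703 and 917 with all arrays; without 1 CG-1521 array the counts were 587 to 1001 and 771 to 1133. Calls among the 35 meiotic genes then ranged from 0 to 12 higher and from 0 to 3 lower. Fitting all probesets of the table together called 334 genes higher and 444 lower, and 1 meiotic gene in each direction, DMC1 and IME1. With the replicate block, which the labels do not require, 369 and 450 genes were called, and 3 meiotic genes higher and 0 lower (2 were lower at an unadjusted p under 0.05). A crossed replicate block, added after seeing the data, called 842 and 978 genes, and 4 and 2 meiotic genes. An intensity trend, a filter at a mean log2 value of 5, median centring and the mean of probesets kept the counts of meiotic genes at 3 and 2. The cause of these shifts was not tested.

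Values of genes that were not called changed sign when an array was left out. ZIP2 ranged from -0.31 to 0.29 and was 0.0104 under median centring, IME4 from -0.26 to 0.55, RIM15 from -0.17 to 0.24, REC102 from -0.34 to 0.55, SPO11 from -0.38 to 0.28, SPO16 from -0.30 to 0.13, RED1 from -0.20 to 0.79, MEK1 from -0.24 to 0.36, PCH2 from -0.075 to 0.19, SAE3 from -0.13 to 0.85, HOP2 from -0.25 to 0.87, AMA1 from -0.15 to 0.67, GMC2 from -0.64 to 1.69, UME6 from -0.27 to 0.051, RPD3 from -0.024 to 0.051 and RME1 from -0.0043 to 0.25. The 5 called meiotic genes kept their direction in all these fits.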
